A study of Mus musculus with 7 samples.

Results

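The genes described here are 10 chemokine receptor genes chosen by symbol, namely Ccr1, Ccr2, Ccr3, Ccr4, Ccr6, Ccr8, Ccr9, Cxcr3, Cxcr4 and Cxcr6, whose products guide effector lymphocytes into tissues. All 10 were found by their symbols among the 47729 genes of the count tables, and all 10 passed the filter on low counts, as did 13904 genes in all. The cells were CD4+CD25+ splenocytes, the surface phenotype of regulatory T cells (Tregs), taken with magnetic beads from male C57BL/6 mice that the labels give as wild type with no treatment. The 3 aged libraries came from mice of 18 months and the 4 young libraries from mice labelled 8 weeks, an age that the study's methods state differently. The isolation selects on CD4 and CD25 alone, so activated conventional CD4 cells may share the RNA with Tregs, and their part was not measured. Transcripts of other cell types, such as B cells, were also present in the RNA.

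Chemokine receptors are G-protein-coupled receptors that steer leukocytes along gradients of chemokines. A cell in the spleen or lymph node carries receptors and adhesion molecules that keep it recirculating, and on activation exchanges them for receptors read by inflamed skin, gut, liver or lung. Tregs follow the same rules as the cells they restrain: Cxcr3 takes them to sites of type 1 inflammation where Cxcl9 and Cxcl10 are made, Ccr4 and Ccr8 to skin and other barrier tissues, Ccr6 to mucosa rich in Ccl20, and Ccr9 to the small intestine through Ccl25. Cxcr4 holds cells in the bone marrow through Cxcl12.

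The promoters of the 3 receptors that passed the test of age are shown, since their mRNA moved most. Each window runs from 250 bases before to 50 bases after the RefSeq start site on GRCm38, 5′ to 3′ on the gene's own strand. They lie at chrX:101734098-101734397 on the minus strand for Cxcr3, chr9:123968643-123968942 on the minus strand for Ccr1 and chr9:123766961-123767260 on the plus strand for Ccr9. Capitals mark matches to 6 short motifs searched on both strands: GGTGTGA of T-box factors, AGATAA of GATA factors, TGANTCA of AP-1, TGTGGTT of RUNX factors, GGAAGT of ETS factors and AGGTCA of ROR factors.
Cxcr3: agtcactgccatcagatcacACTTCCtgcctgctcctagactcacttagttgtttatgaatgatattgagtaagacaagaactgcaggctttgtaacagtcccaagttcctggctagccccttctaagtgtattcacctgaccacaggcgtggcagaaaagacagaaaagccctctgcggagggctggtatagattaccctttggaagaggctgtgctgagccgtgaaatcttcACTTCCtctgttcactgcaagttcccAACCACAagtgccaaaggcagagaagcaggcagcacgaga
Ccr1: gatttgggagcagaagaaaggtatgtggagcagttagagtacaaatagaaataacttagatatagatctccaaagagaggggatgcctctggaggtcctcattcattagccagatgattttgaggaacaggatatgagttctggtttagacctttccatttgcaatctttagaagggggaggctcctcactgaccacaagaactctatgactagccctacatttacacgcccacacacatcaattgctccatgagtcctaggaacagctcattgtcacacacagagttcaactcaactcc
Ccr9: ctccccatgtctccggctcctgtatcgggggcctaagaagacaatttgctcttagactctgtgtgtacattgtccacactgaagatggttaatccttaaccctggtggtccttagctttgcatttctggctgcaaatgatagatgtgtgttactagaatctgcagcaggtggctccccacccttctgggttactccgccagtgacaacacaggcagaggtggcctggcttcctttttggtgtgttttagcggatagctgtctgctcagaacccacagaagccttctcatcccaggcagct

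The Cxcr3 window held an ETS match that begins at base 21, a second at base 235 just before the start site, and a RUNX match at base 261 just after it, and no match overlapped another. ETS letters were in 23.8% of the 32851 promoter windows of this length and RUNX letters in 5.27%. No capitals appear in the windows of Ccr1 and Ccr9, which says only that these letters are not in these 300 bases. Among the 11 windows of all 10 receptors (Ccr6 has 2), AP-1 letters occurred in Ccr3 at base 107 and in Ccr4 at base 108, against 7.81% of all windows. ETS letters were in windows of 4 receptors, Ccr3, Ccr4, Ccr6 and Cxcr3 (23.8% of all windows). GATA letters were in windows of 4 receptors, Ccr2, Ccr3, Ccr6 and Ccr8 (11.2% of all windows), ROR letters in that of Ccr6 alone (16.3%), and T-box letters in none (3.98%). A match is a description of letters, not a bound site.

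Gene counts per library ran from 10734234 to 13649310, all 4 young libraries being deeper than the 3 aged ones, and 3 counts equal 0.22 to 0.279 CPM (counts scaled to library size with TMM factors). No receptor fell below 28 counts in a library. Of the 13904 genes tested with edgeR, 2327 (16.7%) passed an adjusted p of 0.05. They split into 1362 higher in aged cells (9.8%) and 965 lower (6.94%), a split of 1203 against 1483 once GC content and gene length trends were removed. The first principal component, 46.7% of the variance, separated the ages. The defining Treg genes were present throughout, with Foxp3 at 447 to 622 CPM in aged and 394 to 518 CPM in young libraries, and Cd4 at 434 to 446 and 493 to 633 CPM. In bulk RNA, fewer cells that carry a receptor and less mRNA per cell cannot be told apart.

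CD4+CD25+ isolates of aged mice held more Cxcr3 and Ccr1 mRNA and less Ccr9 mRNA than those of young mice. These 3 of the 10 receptors passed the test, 2 higher (against 9.8% of all genes) and 1 lower (against 6.94%). The aged and young libraries did not overlap for 6 receptors, namely Cxcr3, Ccr1 and Ccr8, higher in every aged library, and Ccr9, Ccr4 and Ccr3, lower in every aged library. The same was so for 29.9% of all genes tested. By DESeq2, which called 27.4% of all genes, 7 of the 10 receptors passed, adding Ccr2, Ccr3, Ccr4 and Ccr8. The median log2 fold change of the 10 was 0.095, beside 0.02 for all genes tested. Receptors passed in both directions, and the ages overlapped for Ccr2, Ccr6, Cxcr4 and Cxcr6.

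**Figure D1:**
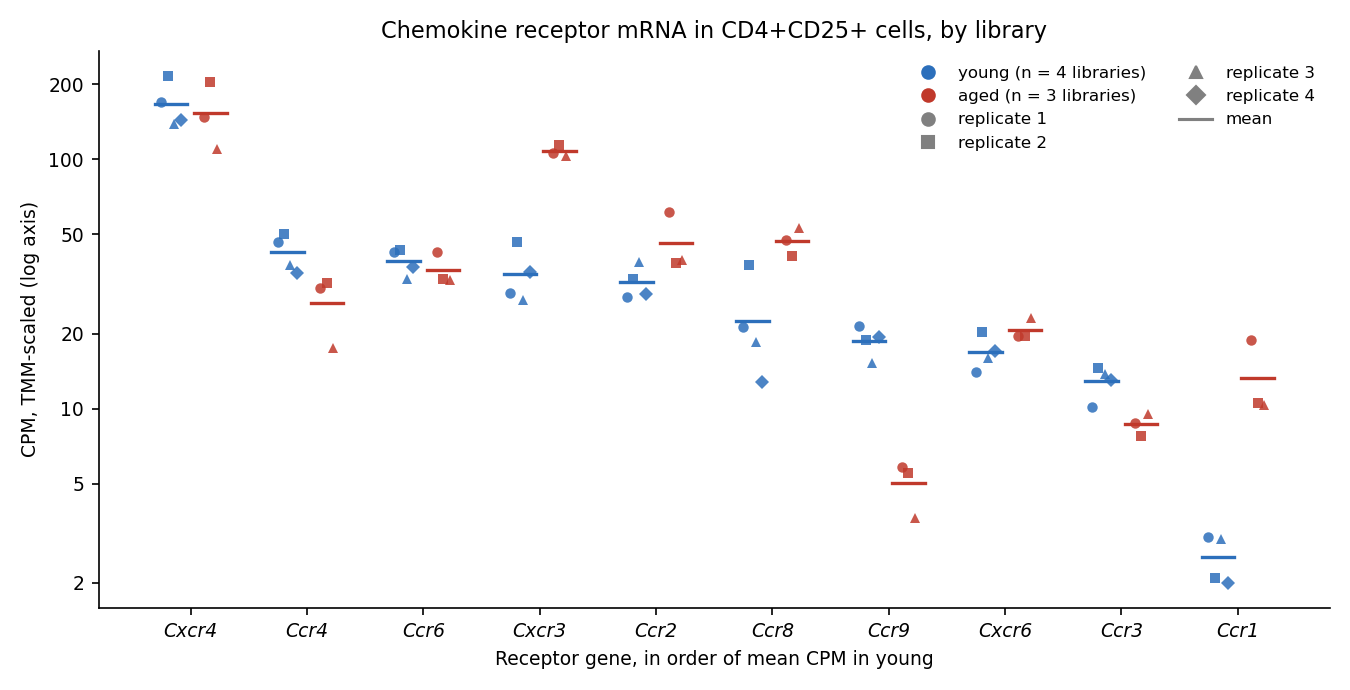
CPM on the TMM scale (log axis) of the 10 receptors in each library, young in blue and aged in red, with the mean as a bar and the replicate as the point's shape. The Cxcr3 points of aged libraries, 103 to 114 CPM, lie above all 4 young points, the Ccr1 points do the same at a lower level, and the Ccr9 points lie below all young points.

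Cxcr3 (ENSMUSG00000050232), the receptor of the interferon-induced chemokines Cxcl9 and Cxcl10, lies on chromosome X of GRCm38 from 101731535 to 101734269. It was at 106.5, 114.3 and 103.0 CPM in the aged libraries. In the young libraries it was at 29.0, 46.7, 27.2 and 35.4 CPM. The aged libraries were close to each other and each held more than 2-fold the highest young library. Means were 107.9 ± 5.77 CPM for aged cells (SD, n = 3) against 34.6 ± 8.84 CPM for young cells (SD, n = 4). This was a 3.12-fold rise, 1.64 on the log2 scale (SE 0.178, edgeR adjusted p = 0.00125). Cxcr3 passed in all 18 alternative analyses, with log2 fold changes from 1.49 to 1.82.

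Cxcr6 (ENSMUSG00000048521, chromosome 9 from 123806475 to 123811760), which binds the membrane-bound chemokine Cxcl16 and retains lymphocytes in liver and lung, was at 19.5, 19.6 and 23.1 CPM in aged libraries. The young libraries held 14.1, 20.2, 15.95 and 16.99 CPM. One young library, replicate 2, lay above 2 aged ones, so the ages overlapped. The log2 fold change of 0.30 (SE 0.149) did not pass edgeR (adjusted p = 0.20), and its exact two-sided permutation p was 0.171.

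Cxcr4 (ENSMUSG00000045382, chromosome 1 from 128588199 to 128592293), the receptor of Cxcl12, had the highest mean level per kilobase of the receptors at each age. It was at 148.3, 203.5 and 109.9 CPM in aged libraries. Young values were 169.5, 215.9, 138.7 and 144.3 CPM. Each age spanned a wide range and the ranges overlapped. The log2 fold change was -0.12 (SE 0.226, edgeR adjusted p = 0.761), and its sign turned when aged replicate 3 (0.08) or young replicate 2 (0.03) was left out. It was -0.37 without aged replicate 2.

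Ccr1 (ENSMUSG00000025804), on chromosome 9 from 123962124 to 123968692, binds Ccl3, Ccl5 and related inflammatory chemokines and is abundant on neutrophils and monocytes. It was at 18.8, 10.6 and 10.4 CPM in aged libraries. The 4 young libraries stood at 3.06, 2.10, 3.00 and 2.01 CPM. Every aged library held over 3-fold the highest young one, and aged replicate 1 stood above the other two. Means were 13.2 ± 4.79 CPM for aged cells (SD, n = 3) against 2.54 ± 0.565 CPM for young cells (SD, n = 4). This was a 5.2-fold rise, 2.39 on the log2 scale (SE 0.28, edgeR adjusted p = 0.00159). It passed in all 18 alternatives, and was 2.04 with aged replicate 1 left out. Its paralogue Ccr1l1 next to it held 0 to 4 counts per library.

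Neutrophil genes were checked beside Ccr1. The summed CPM of 10 neutrophil genes was 5424, 1948 and 743 in aged and 631, 274, 968 and 447 in young libraries, all 10 genes detected in each age. Of the 10, 4 passed edgeR, all higher in aged libraries (against 9.8% of all genes). The median log2 fold change of the 10 was 2.03, beside 0.02 for all genes tested. The number that passed was 1 without young replicate 1 or young replicate 4, 2 without aged replicate 1 and 7 without aged replicate 3. S100a8, an abundant neutrophil transcript, spanned 155 to 1145 CPM against 63.9 to 229.7 CPM. In aged replicate 3 the sum lay inside the young range, as did 6 of the 10 genes, and the other 4 were above every young library in all 3 aged libraries. In aged replicate 3 Csf3r was at 53.1 CPM (at most 22.7 CPM in young), Retnlg at 17.4 (at most 12.7), S100a9 at 324.1 (at most 321.0) and Mmp9 at 19.3 (at most 17.1), genes chosen after their values were seen. The neutrophil receptor gene Cxcr2 was at 11.6 CPM there, against at most 6.12 CPM in young libraries. The part of neutrophil RNA in the Ccr1 difference was not tested.

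Ccr2 (ENSMUSG00000049103, chromosome 9 from 124101950 to 124113557), the Ccl2 receptor of monocytes and activated T cells, was at 61.2, 38.4 and 39.4 CPM in aged libraries. In young libraries it was at 28.0, 33.2, 38.9 and 28.9 CPM. Aged replicate 1 stood apart and the other aged libraries lay on either side of the highest young one. The log2 fold change of 0.52 (SE 0.191) did not pass edgeR (adjusted p = 0.0969), passed by DESeq2 alone among the 18 alternatives (adjusted p = 0.0221, range 0.0221 to 0.334), and was 0.27 without aged replicate 1. The summed CPM of 11 monocyte and macrophage genes was 437 to 673 in aged and 543 to 655 in young libraries, highest in aged replicate 1. Of the 11, Csf1r (33.1 to 54.4 CPM in aged and 88.0 to 95.0 CPM in young libraries), Adgre1 and Vcam1 passed as lower and Cd14 as higher (log2 fold change 1.15, edgeR adjusted p = 0.0132). In aged replicate 1, where Ccr2 stood apart, Ly6c2, a gene of Ccr2-bearing monocytes, was at 107.5 CPM against at most 42.9 CPM in every other library, and Lyz2 at 368.8 against at most 265.7 CPM. In the same library 6 of the 11 genes, Csf1r, Adgre1, Vcam1, C1qa, C1qb and C1qc, were the lowest of all 7 libraries, so the list did not move one way there. All but Csf1r were chosen after their values were seen, and the part of monocyte RNA in the Ccr2 values was not tested.

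Ccr3 (ENSMUSG00000035448, chromosome 9 from 124021972 to 124031689), the eotaxin receptor typical of eosinophils and of some T helper cells, was at 8.74, 7.75 and 9.54 CPM in aged libraries. Young values were 10.1, 14.6, 13.82 and 13.04 CPM. All aged libraries were lower than all young ones, by a small gap to young replicate 1. The log2 fold change of -0.57 (SE 0.169) was just outside the threshold (edgeR adjusted p = 0.0513), and passed in 6 of 18 alternatives (range of adjusted p 0.00897 to 0.202), among them the fit without young replicate 1 at -0.67 (adjusted p = 0.0419). The eosinophil gene Siglecf was near the detection limit, 0.21 to 1.9 CPM in the 7 libraries, but the granule protein genes Prg2, at 5.42 to 88.5 CPM, and Epx, at 0.961 to 15.95 CPM, reached higher levels and overlapped between ages (chosen after their values were seen). The summed CPM of the 10 eosinophil, basophil and mast cell genes was 15.6 to 49.1 in aged and 35.9 to 148 in young libraries. Every tested gene of this list had a negative log2 fold change, the direction of Ccr3, with a median of -1.25. Only Cpa3 passed (-1.28, edgeR adjusted p = 0.0461), a call that held in 2 of the 7 fits with a library left out. The part of these cells in the Ccr3 values was not tested.

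Ccr4 (ENSMUSG00000047898, chromosome 9 from 114490316 to 114504916), the receptor of Ccl17 and Ccl22 that leads Tregs to skin, was at 30.4, 31.9 and 17.6 CPM in aged libraries. The 4 young libraries stood at 46.7, 50.2, 37.6 and 35.1 CPM. No aged library reached the lowest young one, and aged replicate 3 was lowest. Means were 26.6 ± 7.87 CPM for aged cells (SD, n = 3) against 42.4 ± 7.21 CPM for young cells (SD, n = 4). The log2 fold change of -0.67 (SE 0.222) did not pass edgeR (adjusted p = 0.073, range 0.00516 to 0.156 over 18 alternatives, 3 of which passed). It was -0.44 without aged replicate 3.

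Ccr8 (ENSMUSG00000042262, chromosome 9 from 120092114 to 120094906), the receptor of Ccl1 and a mark of tissue Tregs, was at 47.7, 40.8 and 53.0 CPM in aged libraries. The young libraries held 21.3, 37.6, 18.6 and 12.8 CPM. All aged libraries were higher, and young replicate 2 lay close beneath them. The 2.09-fold difference, a log2 fold change of 1.06 (SE 0.313), missed the threshold by little (edgeR adjusted p = 0.0508), and passed in 7 of 18 alternatives (range 0.00478 to 0.149). Without young replicate 2 it was 1.43 (adjusted p = 0.00478). That library also had the highest summed CPM of 10 Treg genes, 4151, against 2522 to 3262 in the other young and 3278 to 3765 in the aged libraries. Of the receptors of barrier tissues, Ccr4 was thus lower and Ccr8 higher in every aged library, and neither passed.

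Ccr6 (ENSMUSG00000040899, chromosome 17 from 8236043 to 8257141), the Ccl20 receptor of mucosal T cells and of B cells, was at 42.4, 33.2 and 32.9 CPM in aged libraries. In young libraries it was at 42.4, 43.3, 33.1 and 37.0 CPM. The ages overlapped, with a log2 fold change of -0.11 (SE 0.139, edgeR adjusted p = 0.64). With 1 library left out it was -0.24 (without aged replicate 1) to -0.04 (without aged replicate 3), and it passed in none of these fits. B cell RNA was present at both ages, the summed CPM of 7 B cell genes being 772 to 1418 in aged and 1218 to 1866 in young libraries.

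Ccr9 (ENSMUSG00000029530), the gut-homing receptor of Ccl25 that recent thymic emigrants and plasmacytoid dendritic cells also carry, lies on chromosome 9 from 123678439 to 123784330. It was at 5.85, 5.54 and 3.65 CPM in aged libraries. The 4 young libraries stood at 21.5, 18.8, 15.2 and 19.4 CPM. The highest aged library lay far below the lowest young library. Means were 5.01 ± 1.19 CPM for aged cells (SD, n = 3) against 18.7 ± 2.60 CPM for young cells (SD, n = 4). The ratio was 0.268, or -1.90 on the log2 scale (SE 0.206, edgeR adjusted p = 0.00125). It passed in all 18 alternatives, at -2.03 to -1.71. Of the gene's 10260 exon bases in GENCODE M21, 2201 (21.5%) are shared with other genes, mostly the antisense AC165425.1, which itself held 1 to 3 counts per library. With no strand setting, reads on shared bases may have been credited to neither gene, so those few counts say little about Ccr9. The level per kilobase given below divides by all 10260 bases.

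Genes of plasmacytoid dendritic cells were checked beside Ccr9, which is one of their markers. Without Ccr9, the summed CPM of the other 7 genes was 255, 234 and 292 in aged and 276, 304, 303 and 334 in young libraries, so the sums overlapped. Most of each sum came from Ly6d, Pacsin1, Bst2 and Tcf4. Of these Ly6d was lower in every aged library, at 61.9 to 122.4 against 122.9 to 164.4 CPM, without passing (edgeR adjusted p = 0.118), and the other three overlapped between ages, genes chosen after their values were seen. The defining gene Siglech was at 1.22 to 2.43 CPM in aged and 3.58 to 6.63 CPM in young libraries. Like Ccr9, Siglech passed as lower (log2 fold change -1.64, SE 0.332, edgeR adjusted p = 0.014), and did so in all 7 fits with a library left out. Of the tested genes other than Ccr9, Siglech alone passed. Klk1 and Cox6a2, other markers of these cells, were at 2.05 CPM or less in every library. Whether cells of this type account for a part of the Ccr9 difference was not tested.

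**Figure D2:**
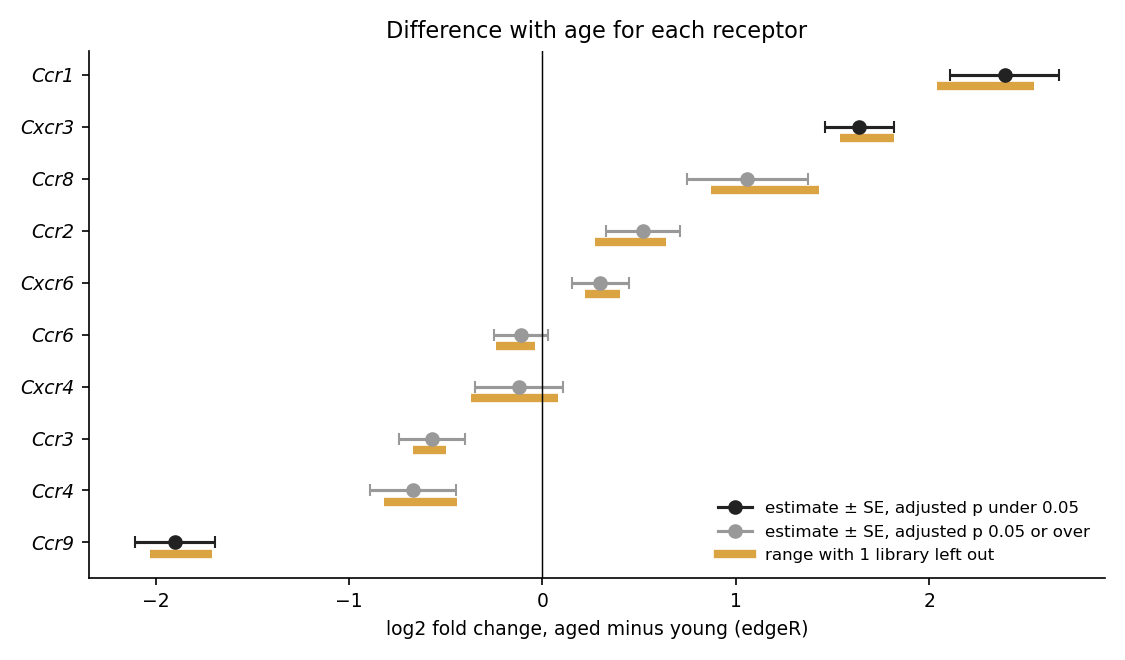
Log2 fold changes of the 10 receptors (aged minus young, edgeR) with standard errors, in black where the adjusted p was under 0.05, and the range over the fits with 1 library left out as a bar beneath. Ccr1 (2.39), Cxcr3 (1.64) and Ccr9 (-1.90) lie farthest from 0, and of the 10 bars only that of Cxcr4 crosses 0.

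**Figure D3:**
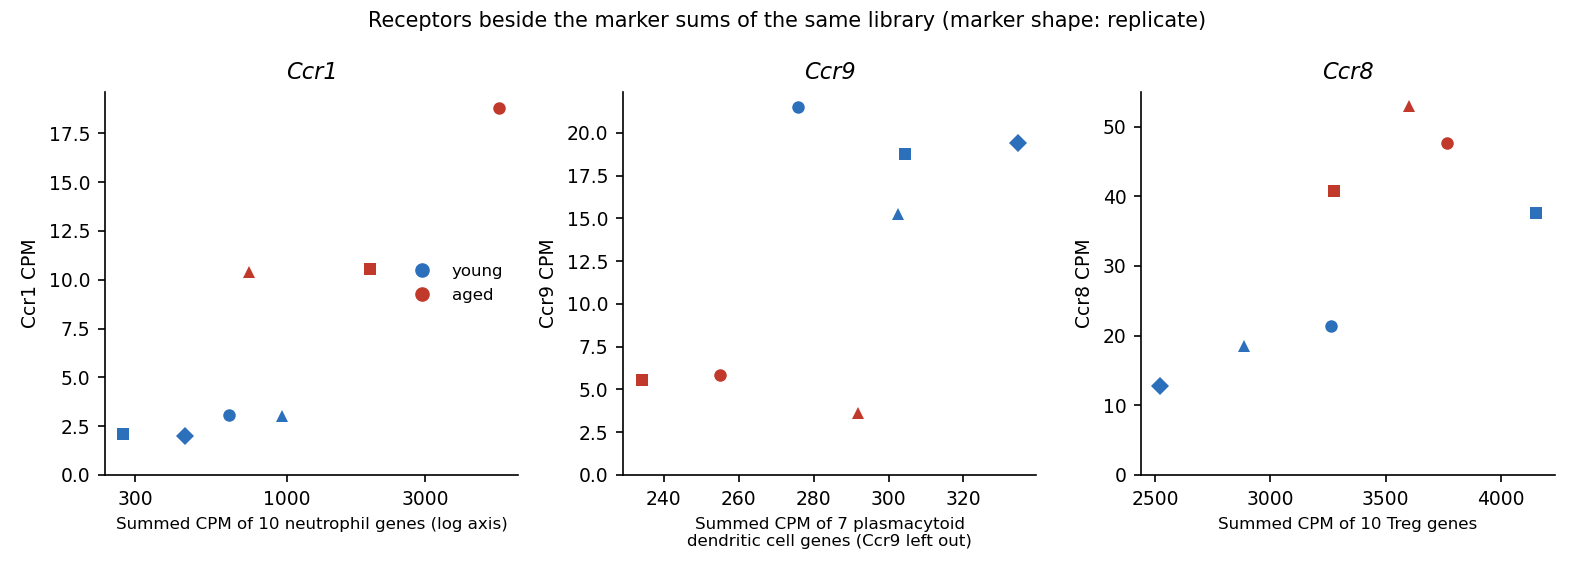
CPM of Ccr1, Ccr9 and Ccr8 in each library (vertical axes, linear) against the summed CPM of neutrophil genes (log axis), of plasmacytoid dendritic cell genes other than Ccr9, and of Treg genes in the same library, with the replicate as the point's shape. Neutrophil sums reach 5424 in aged replicate 1 (red circle), which has the highest Ccr1 level, and that of aged replicate 3 (red triangle), 743, is inside the young range, as are 6 of the 10 single genes. Young replicate 2 (blue square) has the highest Treg sum.

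Levels of different receptors were compared per kilobase of exon. By mean level in young isolates Cxcr4 led at 92.4 ± 19.5 CPM per kilobase (SD, n = 4), followed by Cxcr3 (19.98 ± 5.11), Ccr8 (19.2 ± 9.04), Ccr6 (16.8 ± 2.07), Ccr4 (13.7 ± 2.33), Cxcr6 (8.71 ± 1.34), Ccr2 (4.77 ± 0.737), Ccr3 (3.94 ± 0.593), Ccr9 (1.83 ± 0.254) and Ccr1 (0.897 ± 0.199). Cxcr4 stood clear of all others in each young library. The ranges of Cxcr3, Ccr8, Ccr6 and Ccr4, taken as neighbours, overlapped, as did those of Ccr2 and Ccr3.

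In aged isolates Cxcr4 (85.1 ± 26.0 CPM per kilobase, SD, n = 3) and Cxcr3 (62.4 ± 3.33) had overlapping ranges at the top, and Ccr8 (40.1 ± 5.20) came next, clear of Cxcr3 above and of Ccr6 (15.6 ± 2.32) below. Cxcr6 (10.7 ± 1.06), Ccr4 (8.61 ± 2.54), Ccr2 (6.86 ± 1.91) and Ccr1 (4.68 ± 1.69) overlapped as neighbours, and Ccr3 (2.65 ± 0.274) and Ccr9 (0.489 ± 0.116) closed the order. Ccr1 was thus last in young and above Ccr3 and Ccr9 in aged isolates, whichever cells in them held it. With the length of the longest transcript in place of all exons, the Ccr9 level was 0.965 in aged and 3.60 CPM per kilobase in young isolates, since its annotated exons are long. With that length Ccr6, at 22.2 CPM per kilobase, came second in young isolates, ahead of Cxcr3 and Ccr8, and the order in aged isolates did not change.

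**Figure D4:**
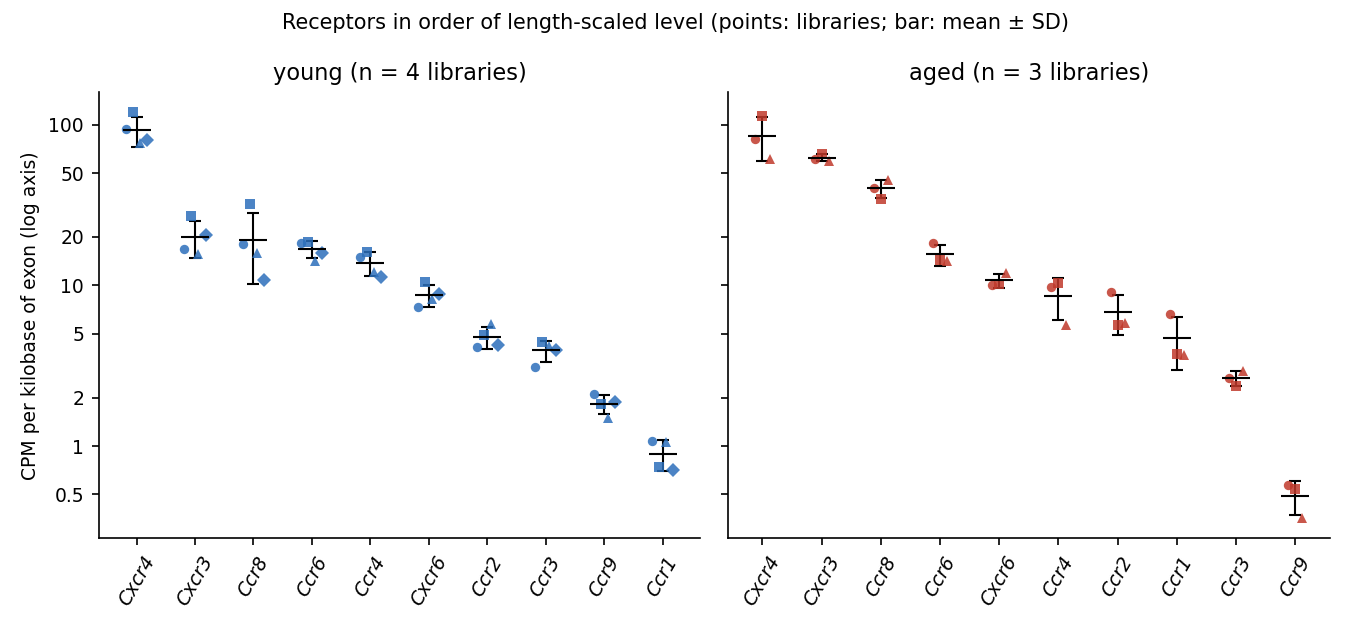
CPM per kilobase of exon (log axis) of the 10 receptors in young and in aged libraries, each panel in its own order, with points for libraries and a bar for the mean ± SD. Cxcr4 stands alone at the top in young libraries, and overlaps Cxcr3 in aged libraries.

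Each receptor's share of the summed length-scaled level of the 10 was also taken, which does not depend on library scaling. Cxcr3 made up 25.5%, 25.4% and 28.4% of the sum in aged libraries. In young libraries it made up 9.33%, 11.5%, 10.1% and 12.9%. Cxcr4 made up 34.0%, 43.2% and 28.9% in aged and 49.4% to 52.2% in young libraries, so that its share was lower in every aged library although its own level overlapped. The summed level itself was 210 to 260 CPM per kilobase in aged and 155 to 236 in young libraries, overlapping. Shares of 1 total move against each other, so a larger Cxcr3 share lowers that of the rest.

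The receptors were also set against Foxp3 of the same library, a scale chosen after the data were seen. Per Foxp3, Ccr1, Cxcr3 and Ccr8 were still higher in every aged library, and Ccr9 and Ccr4 lower. Ccr3 then overlapped between ages, at 1.40 to 2.14 per 100 of Foxp3 in aged and 2.12 to 3.51 in young libraries. Ccr6 no longer overlapped, at 6.82 to 7.35 in aged and 8.36 to 9.34 in young libraries. These are ratios in bulk RNA and do not show which cells held the receptor.

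Of the 10 receptors 7 lie on chromosome 9, and 5 of them, Ccr9, Cxcr6, Ccr1, Ccr3 and Ccr2, within 435.1 kilobases by GENCODE M21 (chr9:123678439-124113557). The Ccr9 gene of GENCODE M21 starts well before the RefSeq promoter window shown above. Neighbours in this stretch moved in different directions. Ccr1 rose between Cxcr6 and Ccr3, which did not pass, and Ccr9 fell at the far end. Fyco1, a gene of vesicle transport whose body contains Cxcr6 on the opposite strand without a shared exon base, was at 65.9 CPM in aged and 65.0 CPM in young isolates (log2 fold change 0.02, SE 0.112). Lztfl1 lies inside the Ccr9 gene body of GENCODE M21, before the RefSeq window of Ccr9. It had a log2 fold change of -0.35 (SE 0.124) and the dendritic cell receptor gene Xcr1 of -1.05 (SE 0.461), and neither passed edgeR (adjusted p = 0.093 and 0.154).

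The genes of the chemokines that the receptors bind were measured in the same RNA, which holds only what cells of the isolate made, of whatever type. Which of these cells held the ligand mRNA was not tested. Of 19 ligand genes found by symbol 12 passed the filter, and 6 of these were called, all higher in aged libraries (against 9.8% of all genes). Their median log2 fold change was 1.4, beside 0.02 for all genes. The summed CPM of the ligand genes was 193 to 244 in aged and 69.4 to 101 in young libraries, and Ccl5 made up the largest part.

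Cxcl10, a Cxcr3 ligand induced by interferon, was at 39.0, 9.16 and 18.0 CPM in aged and 3.00 to 4.37 CPM in young libraries. Its log2 fold change was 2.49 (SE 0.43, edgeR adjusted p = 0.00754), and 1.78 without aged replicate 1, the highest library. The other Cxcr3 ligand gene, Cxcl9, overlapped between ages, at 2.52 to 11.0 and 3.50 to 5.94 CPM, and the sign of its log2 fold change of 0.26 turned without aged replicate 3 (-0.64).

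Among Ccr1 ligands, Ccl5, which activated T cells make, rose from 28.0 to 48.1 CPM in young to 83.7 to 125.6 CPM in aged libraries, a log2 fold change of 1.41 (SE 0.207, edgeR adjusted p = 0.00384). Ccl3 was at 6.12, 2.01 and 8.70 CPM in aged and 2.01 to 2.53 CPM in young libraries and did not pass (log2 fold change 1.36, edgeR adjusted p = 0.059). It passed by DESeq2 (adjusted p = 0.00618), with aged replicate 2 left out (1.75, edgeR adjusted p = 0.00572) and with no filter (0.0426), and was 0.90 without aged replicate 3. Ccl6 overlapped between ages (0.42, and 0.15 without aged replicate 3), Ccl9 was lower in every aged library without passing (-1.08, edgeR adjusted p = 0.0802) but passed by DESeq2 (adjusted p = 0.0209) and with GC content and length trends removed (0.0423), and Ccl7 was at 0.201 CPM or less in every library. Of the 5 ligand genes listed for Ccr1, Ccl5 alone passed in the main edgeR fit.

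Ccl25, the only ligand listed for Ccr9, was at 4.96 to 5.44 CPM in aged and 3.71 to 4.74 CPM in young libraries, a log2 fold change of 0.35 (SE 0.182) that did not pass edgeR (adjusted p = 0.224). Cxcl16, the Cxcr6 ligand, rose from 3.85 to 7.17 CPM in young to 17.7 to 23.5 CPM in aged libraries (log2 fold change 1.92, SE 0.218, edgeR adjusted p = 0.00144). Ccl22, a Ccr4 ligand of activated antigen-presenting and T cells, rose from 3.85 to 5.21 CPM to 11.62 to 11.98 CPM (1.38, SE 0.158, edgeR adjusted p = 0.00147). The remaining called ligand genes were Ccl4 at 1.58, whose call was lost without aged replicate 3 (1.25, edgeR adjusted p = 0.0565), and the Cxcr4 ligand Cxcl12 at 1.72. The Cxcl12 call held in 2 of the 7 fits with a library left out, and was lost without aged replicates 2 and 3 and young replicates 1, 3 and 4, where it was 1.13 to 1.9. Ccl20 and Ccl17, ligands of Ccr6 and Ccr4, were at 0.86 CPM or less in every library.

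Of the 13 other chemokine receptor genes 9 were tested and 3 passed, 2 as higher (against 9.8% of all genes) and 1 as lower (against 6.94%). Cxcr5, which leads cells into B cell follicles, rose from 58.4 to 71.4 CPM in young to 101 to 126 CPM in aged libraries (log2 fold change 0.81, SE 0.111, edgeR adjusted p = 0.00296). Cxcr2, a neutrophil receptor, rose from 2.24 to 6.12 CPM to 11.6 to 23.4 CPM (1.92, SE 0.356, edgeR adjusted p = 0.00993), with the neutrophil genes given above. Ccr7, which holds T cells in lymphoid organs, was lower at 98.3 to 144 CPM against 173 to 244 CPM (-0.77, SE 0.175, edgeR adjusted p = 0.0213). The Ccr7 call was lost without aged replicate 2, aged replicate 3 or young replicate 1, at -0.77 to -0.66.

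Among 17 other genes of homing, 3 passed as higher (against 9.8% of all genes) and 2 as lower in aged libraries (against 6.94%), with a median log2 fold change of -0.09. Itgae, the integrin chain that binds cells to epithelium, rose from 33.5 to 57.7 CPM to 165 to 202 CPM, a log2 fold change of 1.89 (SE 0.185, edgeR adjusted p = 0.000898). Gpr15, a receptor of the large intestine, rose by 1.61 (SE 0.243) and Gpr183, an oxysterol receptor, by 0.85 (SE 0.089). S1pr4 fell by 0.95 on the log2 scale (SE 0.149) and S1pr1, which leads cells out of lymphoid organs, fell by 0.81 (SE 0.128). All 5 passed in each of the 7 fits with a library left out. The gene Itgb7, which partners Itgae and the gut-homing chain Itga4, was lower in every aged library (439 to 539 against 540 to 640 CPM) without passing (-0.27, edgeR adjusted p = 0.162), and was chosen after its values were seen.

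**Figure D5:**
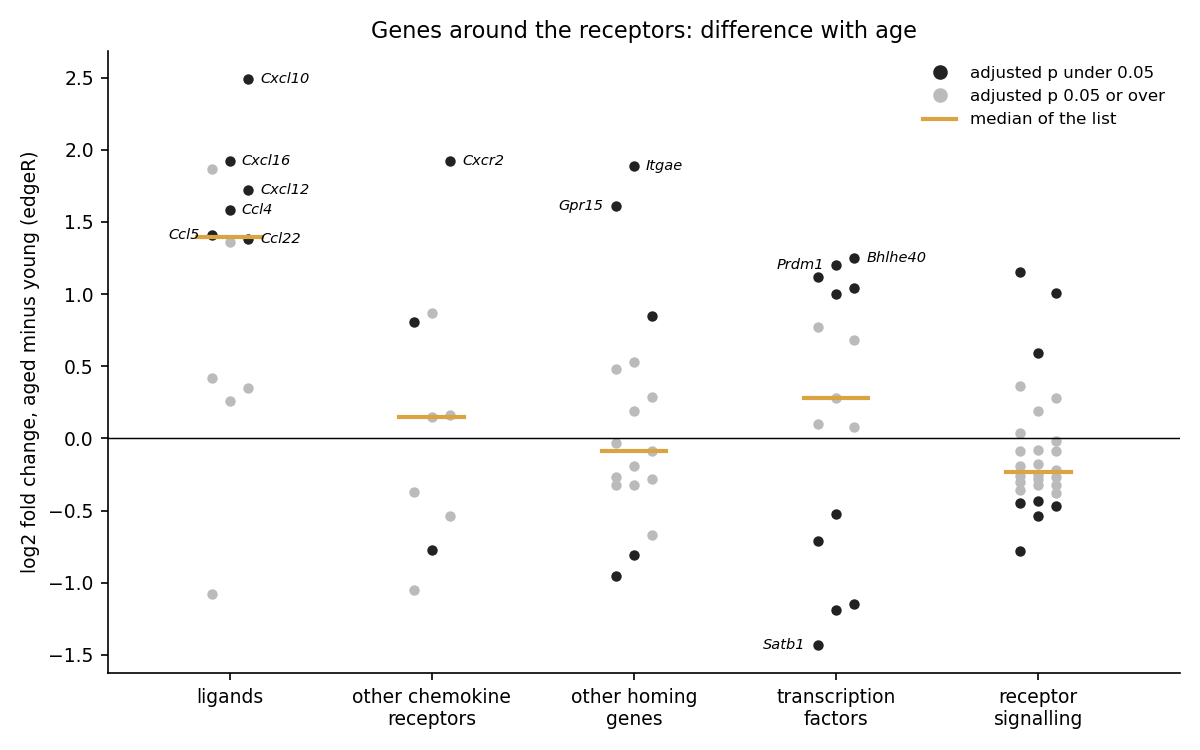
Log2 fold changes (aged minus young, edgeR) of the tested genes of 5 lists, black where the adjusted p was under 0.05, with the median of each list as a line and called genes of 1.2 or more in size named. The ligand genes have the highest median (1.4), and the other lists have medians from -0.23 to 0.28 with called genes on both sides of 0.

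Of 15 transcription factor genes tied to receptor expression, 5 passed as higher and 5 as lower, which is 10 of 15 against 16.7% of all genes. The number was 5 to 12 with 1 library left out, 5 without aged replicate 3. Tbx21, the T-bet gene that drives Cxcr3 in type 1 cells, was at 14.4, 18.3 and 18.0 CPM in aged libraries. The young libraries held 6.03, 7.43, 9.32 and 9.96 CPM. All aged libraries were higher, with a log2 fold change of 1.04 (SE 0.196, edgeR adjusted p = 0.0105). Maf rose by 1.12 (SE 0.124), Batf, an AP-1 factor of effector Tregs, by 1 (SE 0.147), and Bhlhe40 by 1.25 (SE 0.271). The Bhlhe40 call was lost without aged replicate 3, young replicate 3 or young replicate 4, at 1.02 to 1.24. Of the other called factors, chosen for their lost calls, Prdm1 (1.2) lost its call without aged replicates 1 and 3 and young replicates 1, 3 and 4, at 1.06 to 1.17, and Zbtb7b (-0.71) without aged replicate 3 and young replicates 1 and 4, at -0.68 to -0.57.

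Satb1, a chromatin organizer of thymic and naive T cells, fell by 1.43 on the log2 scale (SE 0.148), Bach2, which restrains effector genes, by 1.19 (SE 0.186) and Klf2, which drives S1pr1, by 1.15 (SE 0.225). The Klf2 call was lost without aged replicate 3 (-1.12, edgeR adjusted p = 0.0516). Rara, a receptor of the retinoic acid that induces Ccr9, was at 45.6 to 51.4 CPM in aged and 60.7 to 79.4 CPM in young libraries (-0.52, SE 0.112, edgeR adjusted p = 0.0169). Its call was lost without aged replicate 3 (-0.48) or young replicate 1 (-0.50). Gata3 (0.08), a factor of type 2 cells, did not pass.

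Of 28 genes of receptor signalling and desensitization, 3 passed as higher, about the share of all genes (9.8%), and 5 as lower (against 6.94%), with a median of -0.23. Rgs16, which shortens G-protein signals, rose by 1.15 (SE 0.202, edgeR adjusted p = 0.008). Grk5, a kinase that phosphorylates engaged receptors, rose by 1.01 (SE 0.222) and the Rac activator Tiam1 by 0.59 (SE 0.131). Pik3cg, the kinase gene downstream of the receptors, fell by 0.54 on the log2 scale (SE 0.109), Gnai3 by 0.47 (SE 0.0972), Gnai2 by 0.43 (SE 0.117) and Rgs2 by 0.78 (SE 0.221). Of these, Rgs16 and Pik3cg passed with every library left out in turn. The Gnai3 call was lost without aged replicate 3 (-0.46), that of Grk5 without aged replicate 3, young replicate 1 or young replicate 3 (0.93 to 1.01), and that of Tiam1 without aged replicate 3, young replicate 3 or young replicate 4 (0.49 to 0.61). Scaling by library size alone ended the calls of Tiam1 (edgeR adjusted p = 0.0619), Gnai2 (0.0742) and Rgs2 (0.0609), the absence of a filter that of Gnai2 (0.051) and at least 10 counts in every library that of Rgs2 (0.0505). The Gnai2 and Rgs2 calls were lost with any library other than aged replicate 1 left out, at -0.47 to -0.38 and -0.88 to -0.58. Rgs10, the remaining gene called lower, fell by 0.45 on the log2 scale (SE 0.132, edgeR adjusted p = 0.049). Its call was lost in each of the 7 fits with a library left out, at -0.54 to -0.36, and it was named for that reason. The number of the list's genes that passed ranged from 2 to 9 over those 7 fits, being 2 without aged replicate 3, 3 without young replicate 3, 4 without young replicate 1 or 4 and 5 without young replicate 2.

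Markers of other cell states and types were summed over each list, and their counts stand against 9.8% of all genes called higher, 6.94% lower and 16.7% in either direction. A single called gene is no result about its list. The 2 of 10 Treg genes are near the share called in either direction (16.7%), but both were lower, above the 6.94% called lower. They are not read as a result about that list. Of 7 naive and central memory T cell genes 6 passed, all lower in aged libraries, and of 8 effector and memory genes 4 passed, all higher, a number that was 2 without aged replicate 3 or young replicate 4. Among 10 Treg genes 2 passed, both lower, and among 8 T cell genes 1 passed in each direction. Without young replicate 2, 5 Treg genes and 1 T cell gene passed, and without any library other than that one and aged replicate 1 no T cell gene did. Il2ra, the CD25 gene used in the isolation, was at 327 to 481 CPM in aged and 471 to 684 CPM in young libraries. Of 11 monocyte and macrophage genes 1 was higher and 3 lower, of 7 conventional dendritic cell genes 1 was higher and 2 lower, of 8 NK and innate lymphoid genes 1 was lower, of 4 platelet genes 1 was higher, of 7 eosinophil, basophil and mast cell genes 1 was lower, and of 6 plasmacytoid dendritic cell genes 2 (Ccr9 and Siglech) were lower. By edgeR no gene passed among 7 B cell, 6 plasma cell, 2 CD8 T cell and 6 erythroid genes. DESeq2, which called 27.4% of all genes, called 2, 1, 0 and 0 genes of these lists. The median log2 fold change of the B cell genes was -0.5. Without aged replicate 3, 2 B cell genes passed, and without young replicate 2, 4 plasma cell genes and 3 NK and innate lymphoid genes. No NK and innate lymphoid gene passed without aged replicate 3, young replicate 3 or young replicate 4. No platelet gene did without aged replicate 3, young replicate 1 or young replicate 3, and 2 did without aged replicate 1. Of the eosinophil, basophil and mast cell genes none passed without aged replicate 2, young replicate 1 or young replicate 2, and 2 did without young replicate 4. The summed CPM of the plasma cell genes was 702 to 1260 in aged and 309 to 1977 in young libraries, and that of the erythroid genes 12690 to 156900 and 12380 to 116100. How far these cell types bear on the receptors was not tested.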

How the data were processed

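RNA-sequencing libraries of CD4+CD25+ splenocytes from 3 aged and 4 young mice were analysed. Cells were isolated with a bead kit and cDNA was made with SMART-Seq v4, which carries no molecular identifiers, so depth limits cover counting error only. The authors deposited raw read counts per Ensembl gene and library, in tables laid out as HTSeq-count writes them (named for union mode with no strand setting). The build was mm10 according to the submitters' processing notes. The aligner is not given in the sources used here. The lines for unassigned reads (13.1% to 20.9%) were left out. A second deposited table held, as signal, the same counts divided by 1 size factor per library, and was used for gene symbols. It also held the authors' own fold changes and p-values, which were not used.

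The quasi-likelihood test of edgeR 4.0.16 (R 4.3.3) was run between ages after TMM scaling and filterByExpr, with Benjamini-Hochberg adjustment over 13904 genes and a threshold of 0.05. Exact permutation tests were two-sided over 35 splits, with a smallest p of 0.0571. The replicates are labelled as biological. Coordinates and exon lengths were those of GENCODE M21, and promoters those of RefSeq, both on GRCm38. The alternatives were DESeq2 1.42.0, limma 3.58.1 (voom, or trend with a prior count of 2), RLE or library size alone, mitochondrial, immunoglobulin and haemoglobin genes left out, no filter, at least 10 counts in every library, thinning to the smallest total, GC and length trends removed, the replicate number as a block, a minimum log2 change of 1 in size and each library left out. The scripts were tested on simulated data. The receptors, lists and tests were chosen with earlier results of these data known. The rule for named genes took all 10 receptors, per pathway list and direction the called genes up to the 4 of smallest p, the ligands of called receptors, genes between or overlapping the receptors and the defining marker genes. Others, such as Prdm1, Zbtb7b, Ccl4 and Cxcl12, were named after their values were seen. Results for some genes of the lists are not reported here.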

Additional observations from a re-analysis of the deposited data

Results flagged for a closer look

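In 49 groups of 4 young libraries tested for a library far from the others, 3 passed Dixon's criterion, where chance passes about 1 in 20. Gnai3 was at 194.4 CPM in young replicate 2, and its gap to the next library was 0.993 of the range of 171.2 to 194.4 CPM. Batf was at 58.5 CPM in the same library, against a lowest value of 41.9 CPM (0.872). Ccl6 was at 14.1 CPM in young replicate 3, against a lowest value of 7.22 CPM (0.881). No receptor of the 10 was among them, and groups of 3 aged libraries were not tested.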

How the results depend on the processing

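Of 180 refits of the 10 receptors (18 alternatives each), 161 kept the direction and the side of the threshold, 17 passed only in the alternative, and 2 turned the sign. Genes called numbered 2327, and 3804 by DESeq2, 292 with the replicate number as a block, 1016 with a minimum log2 change of 1 in size and 1237 to 3058 with 1 library left out (1262 without aged replicate 3, and 1315, 1270 and 1237 without young replicates 1, 3 and 4). Receptors called numbered 3, and 7 by DESeq2, 5 each with RLE normalization, without mitochondrial, immunoglobulin and haemoglobin genes, without a filter on low counts, and with GC content and length trends removed. With 1 library left out 3 to 4 passed, and under the replicate block 3. Of the 27 other called genes that the naming rule took, 9 kept the call under the block (Cxcr2, Cxcl16, Ccl5, Itgae, Gpr183, Gpr15, S1pr4, Satb1 and Bach2) and 18 did not (Cxcr5, Ccr7, Ccl22, Cxcl10, Rgs16, Grk5, Tiam1, Pik3cg, Gnai3, Gnai2, Rgs2, S1pr1, Maf, Batf, Tbx21, Bhlhe40, Klf2 and Rara), at adjusted p of 0.0503 to 0.187. DESeq2, which called 27.4% of all genes against 16.7% by edgeR, called 13 signalling genes (8 by edgeR), 8 homing genes (5) and 6 Treg genes (2). It also called 5 conventional dendritic cell genes (3), 3 eosinophil, basophil and mast cell genes (1), 2 NK and innate lymphoid genes (1) and 2 platelet genes (1). Same-numbered libraries did not deviate together (correlations -0.292 to -0.0915). The deviations were taken from means of only 3 or 4 libraries, which ties them to each other. Whether the numbers pair the mice cannot be decided from them. The log2 fold change of Cxcr4 was -0.37 to 0.08 with 1 library left out. That of Cxcl9 was -0.01 by limma-trend and -0.64 to 0.61 with 1 library left out. Receptors with no overlap between ages numbered 6 by the reported scale, 5 by library size alone, 7 after thinning and 6 per Foxp3. The cause of these shifts was not tested. By construction, dividing by the shorter longest-transcript length raised the level per kilobase of Ccr2 in young to 5.63, of Ccr6 to 20.6 in aged and 22.2 in young, and of Ccr9 to 0.965 and 3.60.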
